A study of Arabidopsis thaliana with 8 samples.

Results

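*CHLM*, *PORB* and *hemf2* are nuclear genes of tetrapyrrole metabolism, the pathway that makes chlorophyll, heme, siroheme and the chromophore of phytochrome. They were taken as the probe sets that the annotation of the array pairs with 1 of these gene symbols and with no other gene. Each had 1 such probe set, 254105_at for *CHLM* (AT4G25080), 253871_at for *PORB* (AT4G27440) and 255402_at for *hemf2* (AT4G03205), so the members are 3 of the 13286 genes that were named on the array. RNA was prepared from whole *Arabidopsis thaliana* seedlings 4 days old, either of *hy5-1*, a mutant of the bZIP transcription factor gene *HY5* in the *Landsberg erecta* background, or of wild-type *Ler* itself. Seeds were sown on germination medium containing 50 μM methyl jasmonate (MeJA) or 0 μM, so the hormone was present throughout growth, and seedlings were kept in darkness or in continuous far-red (FR) light, whose fluence rate was 1.5 μmol m-2 s-1. By the growth methods of the study, seeds had a period of white light before these treatments, to synchronize germination. Each of the 8 conditions, namely *hy5-1* with MeJA, *hy5-1* untreated, *Ler* with MeJA and *Ler* untreated in FR light and in darkness, was hybridized to 1 Affymetrix ATH1 array. The mutant is represented by 1 allele, and no label says how many seedlings were pooled.

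Tetrapyrrole synthesis starts from glutamate bound to tRNA and runs through 5-aminolevulinic acid (ALA) and a chain of porphyrinogens to protoporphyrin IX, where it divides into a magnesium branch toward chlorophyll and an iron branch toward heme. Coproporphyrinogen III oxidase, the enzyme for which *hemf2* is named, acts before that division and makes protoporphyrinogen IX. *CHLM* encodes the methyltransferase that adds a methyl group to Mg-protoporphyrin IX in the chlorophyll branch. *PORB* encodes an NADPH:protochlorophyllide oxidoreductase, an enzyme that needs light for catalysis and holds protochlorophyllide in the etioplasts of dark-grown seedlings. FR light acts on seedlings through phytochrome A and starts de-etiolation, and HY5 is a positive regulator of that program.

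The deposited values are logarithms that the authors centred: the FR arrays of a probe set have a median of 0, and so do its dark arrays. A value of 0 is therefore the middle of 4 arrays of one light, and neither the level of a transcript nor its difference between FR light and darkness can be read from it. No source names the base of the logarithm. Base 2 was assumed, so every fold below rests on that base. With 1 array per condition a ratio has no replicate check. In whole seedlings, fewer cells that express a gene cannot be told apart from less of its RNA per cell. *HY5* had no named probe set, so no reading of the mutated gene was at hand to check the *hy5-1* label. Of 6 measured reference genes, listed as stable in other work, none reached 2-fold in any of 48 ratios, the largest having a size of 0.68 on the log2 scale. The JA-responsive thionin gene *THI2.1* was higher with MeJA in 4 of 4 pairs, with a mean log2 ratio of 6.50. The other two measured JA-response genes did not keep one direction. The defensin gene *PDF1.2* had log2 MeJA ratios of 2.12 in *hy5-1* and 0.14 in *Ler* under FR light, and -3.20 in *hy5-1* and -2.86 in *Ler* in darkness. *JMT* is a jasmonate methyltransferase gene that was named after its values were seen. Its MeJA ratios were -1.42 in *hy5-1* and 2.52 in *Ler* under FR light. In darkness they were 4.60 in *hy5-1* and 0 in *Ler*. The dark *Ler* arrays with and without MeJA shared the lowest value, and untreated dark *hy5-1* lay 0.12 above it. Whether these signals sat at a floor was not tested. The ratio of 0 therefore cannot be read as a lack of response, and the size of the 4.60 is uncertain.

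The most variable of the 3 genes was *hemf2*, and its response to MeJA had opposite signs in *hy5-1* and in *Ler*, in FR light as in darkness. With MeJA its signal was 9.69-fold lower in *hy5-1* under FR light and 21.7-fold lower in *hy5-1* in darkness, whereas in *Ler* it was 2.38-fold higher under FR light and 1.77-fold higher in darkness. Ratios of these signs in both lights, of whatever size, were found for 881 probe sets (3.87% of all). *CHLM* stayed under 2-fold in all 8 ratios, as did 47.6% of all probe sets. *PORB* did so in 7, and its eighth, with MeJA in dark-grown *hy5-1*, lay at the 2-fold line.

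Under FR light *hemf2* had values of -0.76 with MeJA and 2.51 untreated in *hy5-1*, against 0.63 with MeJA and -0.63 untreated in *Ler*. In darkness its values were -2.09 with MeJA and 2.35 untreated in *hy5-1*, against 0.41 with MeJA and -0.41 untreated in *Ler*. In each light the untreated *hy5-1* array was the highest and the MeJA-treated *hy5-1* array the lowest, with the 2 *Ler* arrays between them. The range over 4 arrays was 3.28 under FR light and 4.44 in darkness on the log2 scale. None of the lowest values of the 3 genes was shared by 2 arrays of a light, the mark that a lower limit on signals could leave. A single array at such a limit would leave no tie. This check therefore cannot tell whether the MeJA-treated *hy5-1* values of *hemf2* lay at one.

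**Figure D1:**
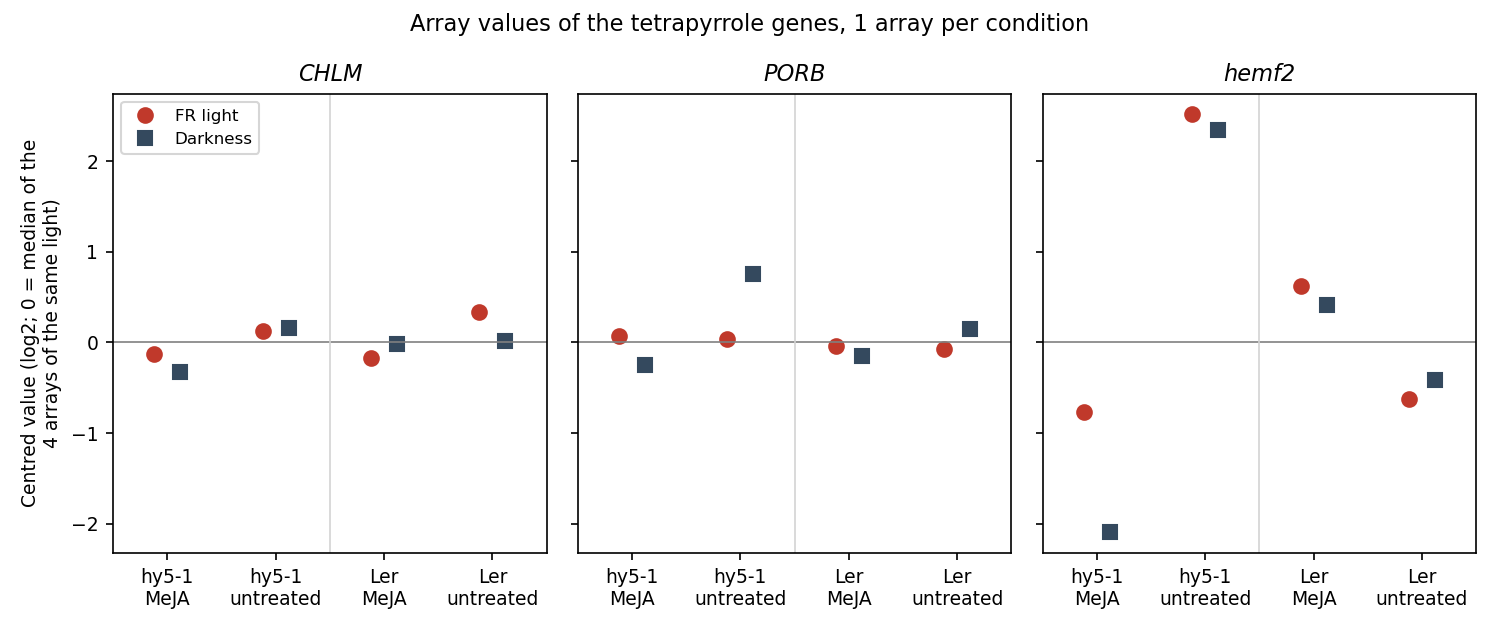
Centred log2 value (vertical axis) of *CHLM*, *PORB* and *hemf2* on each of the 8 arrays, with red circles for FR light, dark squares for darkness and 1 array per point. For *hemf2* the untreated *hy5-1* points lie highest, at 2.51 and 2.35, and the MeJA-treated *hy5-1* points lowest, at -0.76 and -2.09, whereas the points of *CHLM* and *PORB* lie within 1 log2 unit of 0.

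The MeJA ratios of *hemf2* were a log2 of -3.28 in *hy5-1* and 1.25 in *Ler* under FR light, and -4.44 in *hy5-1* and 0.83 in *Ler* in darkness. The FR ratio in *Ler* passed 2-fold and the dark ratio did not. Among all 22746 probe sets analysed, 264 had a ratio as low as that of *hemf2* in *hy5-1* under FR light and 74 in *hy5-1* in darkness. In *Ler*, 2326 probe sets had a ratio as high under FR light and 3095 in darkness, so the 2 decreases in *hy5-1* stood near the edge of all ratios and the 2 *Ler* ratios did not.

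*CHLM*, the methyltransferase gene, had FR values of -0.12 with MeJA and 0.12 untreated in *hy5-1*, against -0.17 with MeJA and 0.34 untreated in *Ler*. Its dark values were -0.32 with MeJA and 0.16 untreated in *hy5-1*, against -0.01 with MeJA and 0.01 untreated in *Ler*. The MeJA-treated array was the lower one in each of the 4 pairs, by 0.24 to 0.51 in 3 of them and by 0.02 in dark-grown *Ler*, where the sign turned (a log2 ratio of 0.03) with quantile normalization and with median scaling. The *CHLM* ratios were a log2 of -0.24 in *hy5-1* and -0.51 in *Ler* under FR light, and -0.48 in *hy5-1* and -0.02 in *Ler* in darkness. Ratios of at least the same size were found for 71.3% of all probe sets in *hy5-1* and 45.5% in *Ler* under FR light, and for 54.4% in *hy5-1* and 96.5% in *Ler* in darkness, so the size of the *CHLM* ratios was ordinary on these arrays.

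*PORB*, the gene of the light-dependent reductase, had FR values of 0.07 with MeJA and 0.04 untreated in *hy5-1*, against -0.04 with MeJA and -0.07 untreated in *Ler*. In darkness it had -0.25 with MeJA and 0.76 untreated in *hy5-1*, against -0.14 with MeJA and 0.14 untreated in *Ler*. The 4 FR arrays thus lay within 0.15 of each other, and among the dark arrays the untreated *hy5-1* seedlings stood above the other 3. The *PORB* MeJA ratio was a log2 of 0.04 in both genotypes under FR light. In darkness it was -1.01 in *hy5-1*, a fold of 0.498, and -0.29 in *Ler*. The *hy5-1* dark ratio no longer reached 2-fold after the arrays were rescaled, with -0.82 where quantile normalization was used and -0.95 where array medians were equalized. At least as large a ratio, in either direction, was found for 28.1% of all probe sets in that pair.

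Counted at 2-fold, the MeJA ratio passed for 1 of the 3 genes (*hemf2*, lower) in *hy5-1* under FR light, beside 24.6% of all probe sets, and 1 of 3 (*hemf2*, higher) in *Ler* under FR light, beside 24%. In darkness it passed for 2 of 3 (*hemf2* and *PORB*, both lower) in *hy5-1*, beside 28.3%, and for 0 of 3 in *Ler*, beside 24.3%. With 3 genes, such counts cannot be set apart from the background. The median log2 ratio of all probe sets lay between -0.09 and -0.06 in the 4 MeJA pairs.

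**Figure D2:**
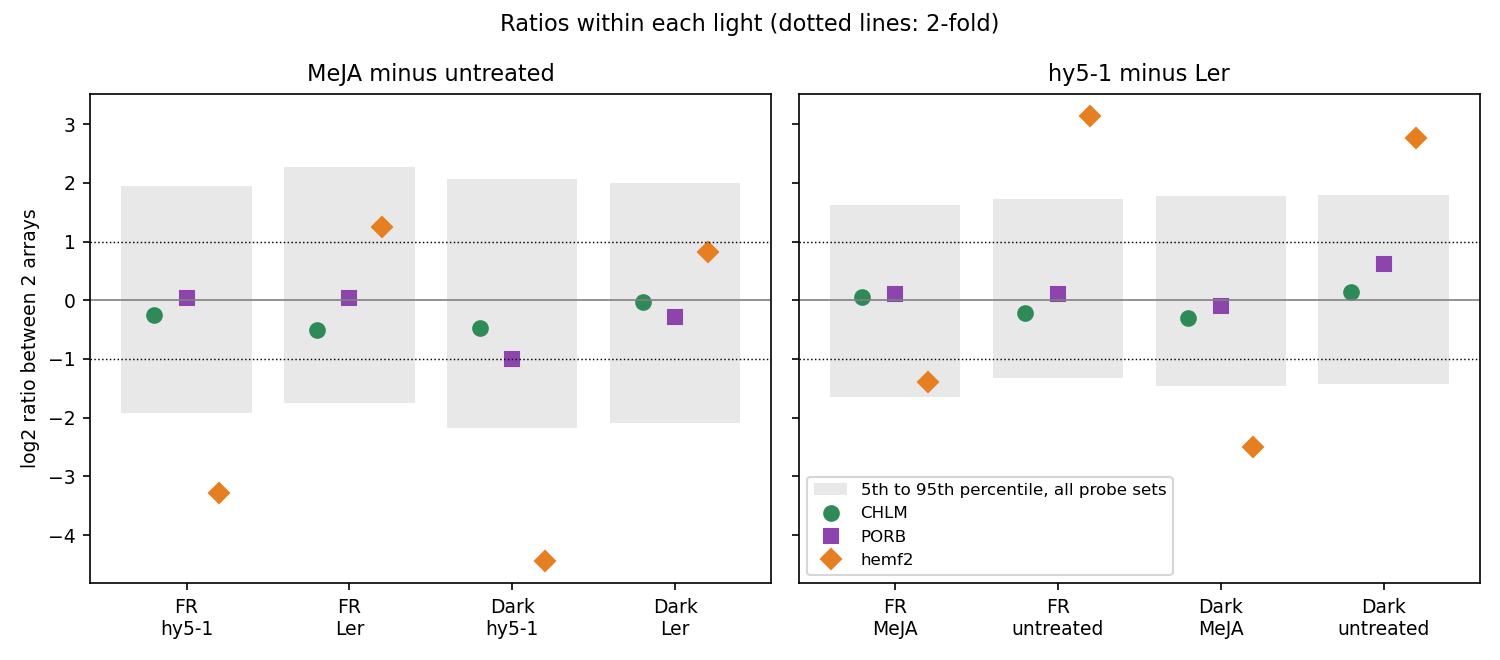
Log2 ratio between 2 arrays (vertical axis) of *CHLM* (circles), *PORB* (squares) and *hemf2* (diamonds), for MeJA minus untreated on the left and *hy5-1* minus *Ler* on the right, over the 4 pairs of each; grey bars run from the 5th to the 95th percentile of all probe sets and dotted lines mark 2-fold. The *hemf2* points at -3.28, -4.44, 3.14, -2.51 and 2.76 lie outside the grey bars, and every point of *CHLM* and *PORB* lies inside.

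The comparison of the genotypes uses the same 8 arrays in other pairs, so it is a second reading of the values above and not separate evidence. In untreated seedlings *hemf2* was higher in *hy5-1* than in *Ler* by 8.82-fold under FR light and by 6.77-fold in darkness, with log2 ratios of 3.14 and 2.76. With MeJA it was lower in *hy5-1* than in *Ler* by 2.62-fold under FR light and by 5.68-fold in darkness, with log2 ratios of -1.39 and -2.51. All 4 genotype ratios of *hemf2* passed 2-fold, and their sign turned with MeJA in each light. A probe set at least 2-fold higher in *hy5-1* without MeJA and at least 2-fold lower in *hy5-1* with it was found 479 times (2.11% of all probe sets) under FR light and 418 times (1.84%) in darkness, and 32 times (0.141%) in both, *hemf2* among them. The study lists *hemf2* among its HY5-dependent genes raised by MeJA under FR light, a list made from these same arrays. The place of *hemf2* in the FR counts is therefore not separate evidence.

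*CHLM* and *PORB* stayed under 2-fold between the genotypes in all 4 pairs. The *hy5-1* minus *Ler* ratios of *CHLM* were a log2 of 0.05 with MeJA and -0.22 untreated under FR light, and -0.31 with MeJA and 0.14 untreated in darkness. Those of *PORB* were 0.11 with MeJA and 0.11 untreated under FR light, and -0.10 with MeJA and 0.61 untreated in darkness. The last, 1.53-fold higher in *hy5-1*, was the largest genotype ratio of either gene, and 29.6% of all probe sets had one at least as large in that pair. At 2-fold the genotypes differed in 1 of the 3 genes in each pair, always *hemf2*, beside 18% of all probe sets with MeJA and 16% untreated under FR light, and 17.1% with MeJA and 17.3% untreated in darkness.

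The MeJA ratio of *hemf2* was lower in *hy5-1* than in *Ler* by 4.53 log2 units under FR light and by 5.27 in darkness. Of all probe sets, 240 had a difference as low under FR light and 97 in darkness, and 12 had one of -4.53 or lower in both. In limma, a model of light, genotype and MeJA with their 2-way interactions gave this interaction for *hemf2* as -4.90 (standard error 0.35, 95% interval -6.18 to -3.62), with an adjusted p of 0.706 over all probe sets (Benjamini-Hochberg). Its unadjusted p was number 30 of 22746 in order of size. The difference had the same sign in both lights and did not pass the correction. The model has 1 residual degree of freedom and called 0% of probe sets (1442 had an unadjusted p under 0.05). For *CHLM* the same interaction in limma was -0.09 (95% interval -1.36 to 1.17, adjusted p = 0.965), and for *PORB* it was -0.36 (95% interval -1.62 to 0.91, adjusted p = 0.873).

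Averaged over the 4 pairs, none of the 3 genes passed the limma test for MeJA, which had a block for each combination of genotype and light. The mean MeJA ratio of *CHLM* was a log2 of -0.31 (standard error 0.15, 95% interval -0.72 to 0.09, adjusted p = 0.296, limma), lower with MeJA in 4 of 4 pairs as deposited and in 3 of 4 under either rescaling. That of *PORB* was -0.30 (standard error 0.23, adjusted p = 0.485, limma), lower in 2 of 4 pairs. For *hemf2* the mean was -1.41 with a standard error of 1.16 (adjusted p = 0.518, limma), with 2 pairs above 0 and 2 below. The size of these means turned on single pairs. That of *PORB* was -0.07 without the dark *hy5-1* pair. That of *hemf2* was -0.79 without the FR *hy5-1* pair and -0.40 without the dark *hy5-1* pair, and -2.30 without the FR *Ler* pair and -2.15 without the dark *Ler* pair. This model called 4.37% of all probe sets. The corresponding model for genotype called 0% (1553 with an unadjusted p under 0.05) and gave means of -0.08 for *CHLM*, 0.18 for *PORB* and 0.50 for *hemf2*, with adjusted p of 0.911, 0.833 and 0.94 (limma). The 95% intervals of these genotype means ran from -0.45 to 0.28, from -0.25 to 0.61 and from -2.63 to 3.63 in the same order of genes. A difference of 2-fold lay outside the first 2 and inside the third. The spread between pairs of unlike condition sets these intervals, not replicates, so they do not exclude such a difference.

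For each gene, the interval of the difference in response between the lights included 0. The MeJA ratio, averaged over the genotypes, differed between FR light and darkness by a log2 of -0.13 for *CHLM*, 0.69 for *PORB* (95% interval -0.58 to 1.95) and 0.79 for *hemf2* (95% interval -0.49 to 2.07), with adjusted p of 0.919, 0.683 and 0.673 in limma. The genotype ratio differed between the lights by 0.00 for *CHLM*, -0.15 for *PORB* and 0.75 for *hemf2*, with adjusted p of 1, 0.992 and 0.985 in limma.

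**Figure D3:**
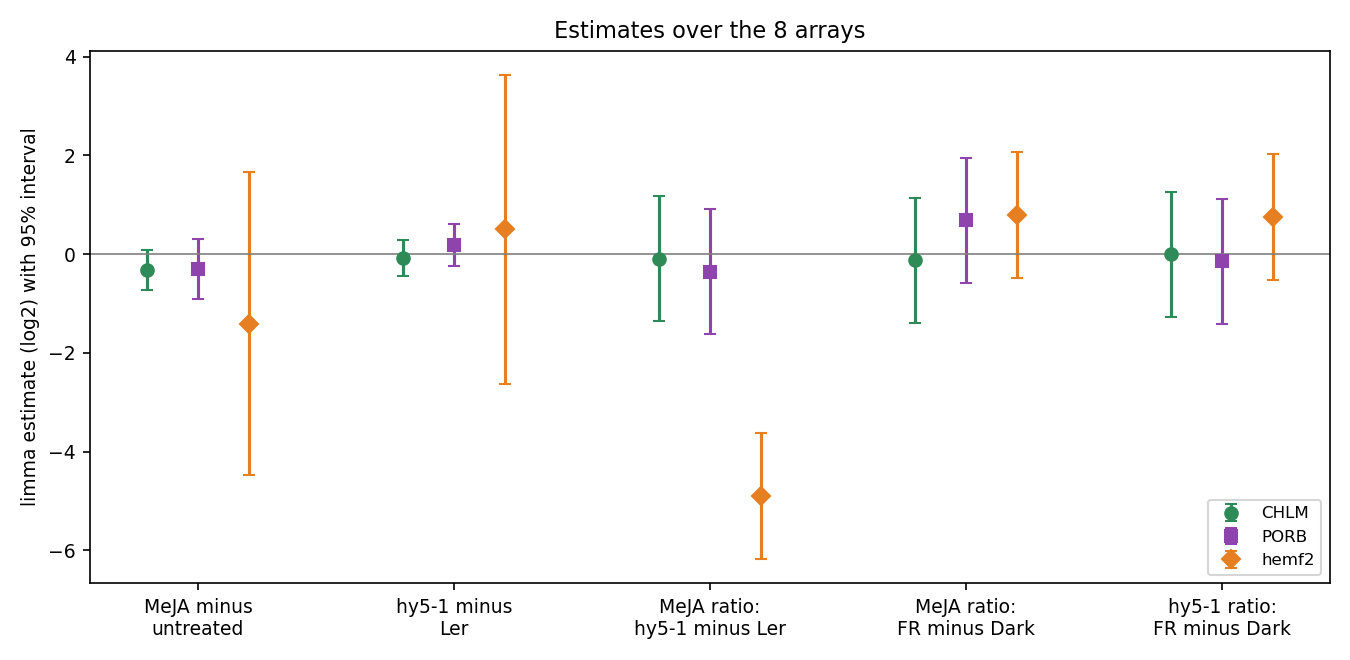
Limma estimates (vertical axis, log2, with 95% intervals as bars) for *CHLM* (circles), *PORB* (squares) and *hemf2* (diamonds), for the mean MeJA ratio, the mean *hy5-1* minus *Ler* ratio and the 3 differences between ratios. The only interval that leaves out 0 is that of *hemf2* for the MeJA ratio in *hy5-1* minus that in *Ler*, at -4.90, whose adjusted p was 0.706.

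Across the 8 arrays, each value set against the mean of its light, *hemf2* and *PORB* had a Pearson's r of 0.672, *hemf2* and *CHLM* one of 0.471, and *CHLM* and *PORB* one of 0.469. These describe 8 arrays of 8 conditions and share the centring by light. The same measure was taken against the other 13435 named probe sets, of which 47 exceeded 0.9 for *hemf2*, 140 for *PORB* and 105 for *CHLM*. The 3 most like *hemf2* were AT5G59330 (r of 0.964), AT4G22740 (0.960) and AT1G22080 (0.953). AT5G59330 had MeJA ratios of opposite sign in the genotypes under FR light, -2.37 in *hy5-1* and 0.88 in *Ler*, but not in darkness, with -3.93 in *hy5-1* and -0.34 in *Ler*. AT4G22740 had opposite signs in both lights with small ratios, -0.22 in *hy5-1* and 0.11 in *Ler* under FR light and -0.29 in *hy5-1* and 0.11 in *Ler* in darkness. AT1G22080 also had opposite signs in both lights, -1.23 in *hy5-1* and 0.55 in *Ler* under FR light and -1.90 in *hy5-1* and 1.09 in *Ler* in darkness. Those most like *PORB* were AT2G05080 (0.981), AT3G51120 (0.980) and AT2G04360 (0.978), and those most like *CHLM* were AT5G53100 (0.988), AT2G43370 (0.973) and AT2G38820 (0.972). AT5G53100 followed *CHLM* with larger MeJA ratios, from -2.51 in dark-grown *hy5-1* to -0.49 in dark-grown *Ler*.

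A gene counted as measured only if the annotation paired a probe set with it alone. The 8730 probe sets that were not listed there were not searched for other genes. Of 44 genes listed for tetrapyrrole synthesis, 15 were measured in this sense, the 3 members included, so the pathway was read in part only. Among the other 12, the MeJA ratio passed 2-fold for *HEMB2* in *hy5-1* and *Ler* under FR light and in *hy5-1* in darkness, higher with MeJA each time, and for *HEMA3* in *hy5-1* under FR light, lower with MeJA. The other 10 passed it in no pair. Of all probe sets, 24.6% passed 2-fold in *hy5-1* and 24% in *Ler* under FR light. In darkness 28.3% did so in *hy5-1* and 24.3% in *Ler*. The median log2 MeJA ratio of all 12 was 0.45 in *hy5-1* and 0.09 in *Ler* under FR light, and -0.02 in *hy5-1* and 0.02 in *Ler* in darkness. Among the 15 genes, *hemf2* was the only 1 with a MeJA ratio below 0 in *hy5-1* and above 0 in *Ler* in both lights. Such signs were found for 3.87% of all probe sets.

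At the start of the pathway, *HEMA2*, a glutamyl-tRNA reductase gene, was higher in *hy5-1* than in *Ler* in 4 of 4 pairs, with log2 ratios of 1.33 with MeJA and 1.19 untreated under FR light and 0.33 with MeJA and 0.50 untreated in darkness. The mean genotype ratio of 0.84 (standard error 0.23) did not pass in limma (adjusted p = 0.703). The MeJA ratios of *HEMA2* were below 0 in 4 of 4 pairs (adjusted p = 0.249, limma). They were -0.08 in *hy5-1* and -0.22 in *Ler* under FR light, and -0.76 in *hy5-1* and -0.59 in *Ler* in darkness. *HEMA3*, of the same family, had MeJA ratios of -2.02 in *hy5-1* and -0.89 in *Ler* under FR light, and 0.69 in *hy5-1* and -0.69 in *Ler* in darkness. *GSA1*, which encodes the aminomutase that makes ALA, had MeJA ratios between -0.52 and 0.45.

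Between ALA and protoporphyrin, *HEMB2*, an ALA dehydratase gene, rose with MeJA. It was the only 1 of the 15 genes to pass in limma, beside 4.37% of all probe sets. Its log2 ratios were 1.96 in *hy5-1* and 1.75 in *Ler* under FR light, and 2.54 in *hy5-1* and 0.99 in *Ler* in darkness (1.12 with quantile normalization), with a mean of 1.81 (standard error 0.29, adjusted p = 0.0468, limma, 4 of 4 pairs). The call was close to the threshold: the adjusted p was 0.0507 with robust moderation in limma and between 0.0922 and 0.176 with any 1 of the 4 pairs left out. *HEMB1*, the other ALA dehydratase gene, was higher with MeJA in 4 of 4 pairs, by 0.09 to 0.70 on the log2 scale (adjusted p = 0.235, limma). The uroporphyrinogen decarboxylase genes *HEME1* and *HEME2* had MeJA ratios between -0.12 and 0.32. *HEMN1*, named for a bacterial coproporphyrinogen oxidase that works without oxygen, had MeJA ratios of 0.75 in *hy5-1* and 0.14 in *Ler* under FR light and -0.03 in *hy5-1* and 0.08 in *Ler* in darkness, unlike *hemf2*, the other gene named here for that step. Like *HEMA2*, *HEMN1* was higher in *hy5-1* than in *Ler* in 4 of 4 pairs (adjusted p = 0.723, limma). Its genotype ratios were 1.27 with MeJA and 0.65 untreated under FR light, and 0.21 with MeJA and 0.31 untreated in darkness. The first passed 2-fold, beside 18% of all probe sets. *HEMB1*, *HEME1* and *CHLP*, a gene of the chlorophyll branch, were lower in *hy5-1* in 4 of 4 pairs, all under 2-fold. Their adjusted p were 0.726, 0.825 and 0.754 in limma.

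In the chlorophyll branch, *CHLP*, the geranylgeranyl reductase gene for the phytol tail, resembled *CHLM* in having 4 of 4 MeJA ratios below 0, from -0.64 to -0.07 (adjusted p = 0.283, limma), the one nearest 0 turning to 0.00431 with quantile normalization. *HEMA2*, outside this branch, had the same signs. *CHLI2*, for a subunit of Mg-chelatase, had MeJA ratios of 0.89 in *hy5-1* and -0.10 in *Ler* under FR light and 0.11 in *hy5-1* and -0.04 in *Ler* in darkness. *NOL*, a chlorophyll b reductase gene, had ratios between -0.18 and 0.45. In the siroheme branch, *SIRB*, for the ferrochelatase of siroheme, had MeJA ratios between -0.01 and 0.82. Of 14 listed regulators, *LIL3.1* and *LIL3.2*, for light-harvesting-like proteins that bind geranylgeranyl reductase, were measured. *LIL3.2* was lower with MeJA in 4 of 4 pairs, with a mean of -0.61 (adjusted p = 0.121, limma), and *LIL3.1* had a mean of 0.04. Of 11 genes of chlorophyll breakdown only *SGRL*, a homolog of *STAY-GREEN*, was measured, with MeJA ratios between -0.46 and 0.31. Of 24 chlorophyll-binding and RuBisCO genes 3 were measured, and their mean MeJA ratios ran from -0.76 for *LHCB4.3* (adjusted p = 0.0626, limma) to 0.00 for *LHCB4.1*.

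**Figure D4:**
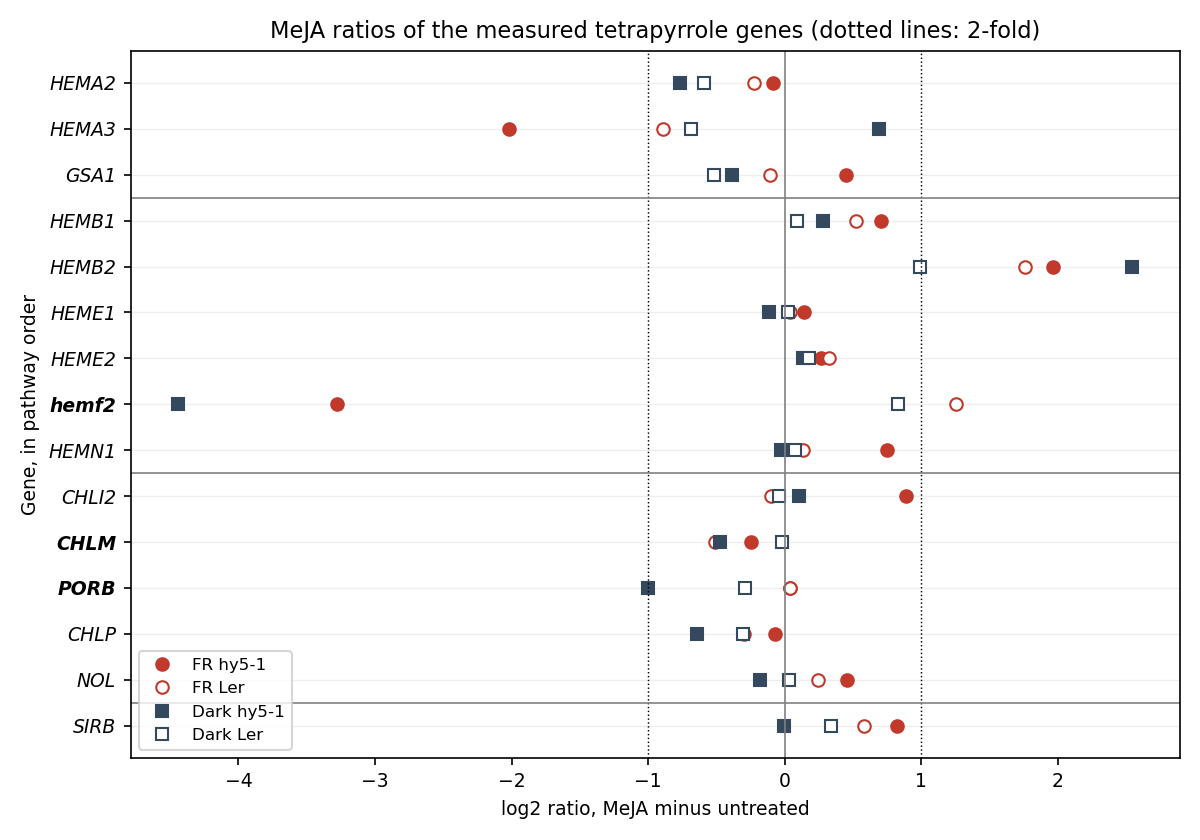
Log2 MeJA ratio (horizontal axis) of the 15 measured genes of tetrapyrrole synthesis in pathway order, with lines between the ALA, porphyrin, chlorophyll and siroheme steps; filled symbols are *hy5-1*, open symbols *Ler*, red circles FR light, dark squares darkness, and dotted lines 2-fold. *hemf2* has its *hy5-1* points at -3.28 and -4.44 and its *Ler* points at 1.25 and 0.83, *HEMB2* has all 4 points at or above 0.99, and the 2 FR points of *PORB* coincide at 0.04.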

How the data were processed

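Whole seedlings of 8 conditions were profiled on Affymetrix ATH1 arrays, 1 array each. The deposited values are log2 values (base assumed) that the authors made from MAS5 summaries, named with no version in the submitters' processing notes, and normalized in GeneSpring GX. How arrays were scaled to each other, and whether signals had a lower limit, is not stated in the sources. The median of a probe set is 0 in FR light and 0 in darkness, so levels and filters on dim signals were not used. Between the lights only ratios were compared, not levels. Of 22810 probe sets, 64 controls were left out. Of the other 22746, 13436 were paired with 1 gene through the annotation of the array and RefSeq names (TAIR10.1), 503 with several, 77 had no locus and 8730 were not listed. Sequences were not used here.

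Ratios, as log2 differences, were formed within a light and called at a fold of 2 or 0.5, the thresholds of the study. Fits used limma 3.58.1 in R 4.3.3, without a variance trend, with Benjamini-Hochberg adjustment over all 22746 probe sets at 0.05. The models for MeJA and for genotype had a block for each pair (3 residual degrees of freedom), and the interaction model had 1. The pairs differ in condition, so their spread is not that of replicates. All fits were run on simulated normal noise with changes of known size added, to check that the mean estimate came back. That run was not used to judge the power of the fits on these arrays. The text names the members, every measured gene of synthesis, regulation and breakdown, the highest and lowest gene of the other lists by mean MeJA ratio, and the 3 named probe sets most correlated with each member. Of the reference genes these were *GAPC2* at 0.40 and *UBC21* at -0.22, and of 3 measured JA-response genes *THI2.1* at 6.50 and *PDF1.2* at -0.95. None of 11 seed maturation genes had a named probe set. Members and lists were chosen with earlier results of these data known. Alternatives were quantile normalization, median scaling, natural logs, a fold of 1.5, robust moderation, leaving out 414 probe sets with a tied lowest value (within 1e-06), and leaving out each pair.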

Additional observations from a re-analysis of the deposited data

Results flagged for a closer look

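The MeJA ratio of *hemf2* was below 0 in *hy5-1* and above 0 in *Ler* in both lights, with a mean difference of -4.90 on the log2 scale. Read the other way, its *hy5-1* minus *Ler* ratio was below 0 with MeJA and above 0 without it in both lights, and the difference is the same -4.90 because it uses the same arrays. Limma gave an adjusted p of 0.706 for it, and 0.697 to 0.766 over 4 other settings. The MeJA ratio of *PORB* was above 0 in both genotypes under FR light and below 0 in both in darkness, a mean difference of 0.69 with an adjusted p of 0.683 in limma.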

How the results depend on the processing

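Of 164 gene values recomputed under another setting, 156 kept their side of the threshold and, where they had passed it, their direction. A value that had not passed counted as kept even if its sign turned. The genotype and interaction models called 0 probe sets in every setting run, so their gene values could not change side. The MeJA call of *HEMB2* in limma was lost with robust moderation and with any 1 pair left out. Of 44 recomputed counts of probe sets, 32 stayed within 1.5 times the first count. The MeJA ratio of *PORB* in dark-grown *hy5-1* left the 2-fold call at -0.82 with quantile normalization and at -0.95 with median scaling, and that of *hemf2* in dark-grown *Ler* reached it, at 1.19, if the values are natural logs. With 1 pair left out, the number of probe sets called for MeJA in limma ranged from 0 to 34, against 995, with fewer degrees of freedom, and the mean genotype ratio of *hemf2* ranged from -0.38 to 1.50. It changed sign to -0.38 without the untreated FR pair and to -0.25 without the untreated dark pair. At 1.5-fold, the MeJA ratio passed for 9673 probe sets in *hy5-1* and 9297 in *Ler* under FR light, and 10610 in *hy5-1* and 9303 in *Ler* in darkness. The genotype ratio then passed for 7078 probe sets with MeJA and 6351 untreated under FR light, and for 6464 with MeJA and 7075 untreated in darkness. The interaction of MeJA and genotype for *hemf2* stayed between -5.04 and -4.88. Signal over background is not given, and the centring hides which signals were dim.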

Other observations

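In the RefSeq annotation (TAIR10.1), the gene after *CHLM*, AT4G25090, and the gene after *PORB*, AT4G27450, overlap them. AT4G25090 had MeJA ratios between -0.29 and 0.48 on the log2 scale and AT4G27450 between -0.45 and 0.10, and neither reached 2-fold in any of the 8 ratios. AT4G03200, the gene before *hemf2*, had MeJA ratios of -0.08 in *hy5-1* and 0.33 in *Ler* under FR light, and -1.54 in *hy5-1* and -0.74 in *Ler* in darkness. Which bases the probes of these probe sets match was not analysed here.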
